A study of Mus musculus with 8 samples.

Results

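The laminins, their linker proteins the nidogens, and the integrins that bind matrix at the cell surface were compared between the distal epithelium and the mesenchyme of the embryonic mouse lung. Members were all genes in the array annotation whose symbol names a laminin α, β or γ chain, an integrin α or β chain, or nidogen 1 or 2. This gave 36 of the 18996 genes analysed, namely 10 laminin chains, both nidogens and 24 integrin chains. *Itga10* and *Itgad* are not analysed here. The epithelium group held 4 samples of separated distal bud epithelium and the mesenchyme group 4 samples of the tissue around it. All 8 samples came from wild type embryos at E12.5 with no treatment named, given as C57bl/6J in the sample labels and C57BL/6 in the methods but as BALb/c in the series description. Distal buds were cut out together with mesenchyme and mesothelium, digested with dispase on ice and separated with needles, although the labels call the material an organ homogenate. Each of 4 arrays carried an epithelium sample in Cy3 and a mesenchyme sample in Cy5, with no dye swap, so dye and tissue cannot be told apart in any difference reported here.

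Laminins are trimers of an α, a β and a γ chain. They assemble into the sheet that forms the core of a basement membrane, and nidogens link that sheet to the network of collagen IV. Integrins are pairs of an α and a β chain that span the cell membrane and connect laminins, collagens, fibronectin and other ligands to the actin or keratin cytoskeleton. In the embryonic lung a basement membrane lies between the branching epithelium and the mesenchyme, and laminins and integrins are known to be needed for branching.

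All values are normalized log2 signals, so a difference of 1 is a doubling. Differences are epithelium minus mesenchyme, with 4 samples of each tissue throughout. Each gene is represented by its brightest array feature. A gene passed the test when its adjusted p from limma, corrected over all 18996 genes, was under 0.05. The samples are tissue pieces of mixed cells, so fewer cells of a type and less RNA per cell cannot be told apart. Signals of different genes depend on their probes and are not set against each other.

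The separation of the tissues was checked with marker genes. All 12 epithelial markers passed towards the epithelium, among them *Cdh1* (6.15, SE 0.14) and *Epcam* (4.28, SE 0.080), and all 12 mesenchymal markers passed towards the mesenchyme. Markers of other cell types were found with the mesenchyme, those of vessels (12 of 12 passed towards the mesenchyme, *Pecam1* -2.80), leukocytes (8 of 8, *Ptprc* -1.44), platelets (5 of 6, *Pf4* -2.97), erythroid cells (7 of 7) and mesothelium (6 of 8, *Wt1* -4.03). The other mesothelial markers, *Msln* (2.44) and *Krt19* (1.71), passed towards the epithelium. Smooth muscle markers lay on the other side, with 8 of 10 passing towards the epithelium (*Acta2* 2.57), as did 6 of 7 markers of neural crest and neurons. *Cdh1* still had a signal of 5.64 ± 0.30 (SD, n = 4) in the mesenchyme samples. The epithelial markers had a median difference of 4.19, with list means of 11.90 to 11.98 in the epithelium, against 7.10 to 7.55 in the mesenchyme. The mesenchymal markers differed less, with a median of -1.17. Their list means were 8.20 to 8.22 in the epithelium, against 10.19 to 10.25 in the mesenchyme. Carry-over of either tissue into the other was not tested. The part of these cell types in the differences of the members was not tested.

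Of the 36 genes, 28 passed the test (77.8%, beside 45.9% of all genes tested). Of these, 12 passed towards the epithelium and 16 towards the mesenchyme; 8 members did not pass. The counts in each direction are 33.3% and 44.4% of the members, beside 21.2% and 24.8% of all genes tested. A log2 difference of at least 1 was seen in 6 members towards the epithelium and 8 towards the mesenchyme (16.7% and 22.2%), beside 6.69% and 7.24% of all genes. The samples of the tissues did not overlap for 25 members, or 69.4%, where the share over all genes was 44.3%. Of these members, 11 lay higher in the epithelium, a direction in which 20.3% of all genes did not overlap, and 14 in the mesenchyme, where the share of all genes was 24%. The median size of the difference, whichever its sign, was 0.82 among the members and 0.24 over all genes, while the median of the signed differences was -0.14 and -0.029. Laminins and nidogens had 6 genes towards the epithelium and 4 towards the mesenchyme out of 12, and integrins had 6 and 12 out of 24. The members were thus split between the tissues.

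**Figure D1:**
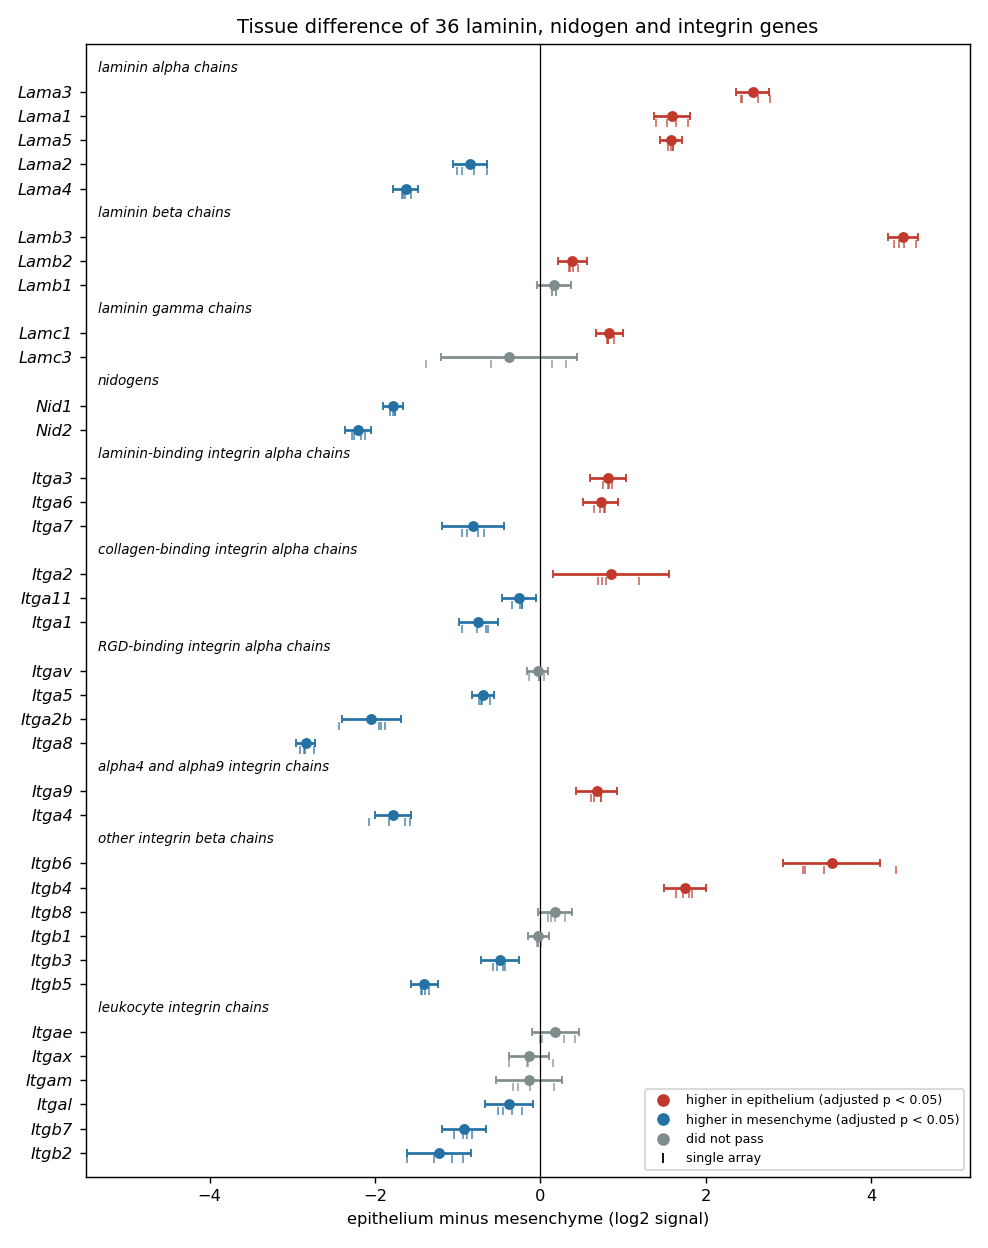
Log2 difference, epithelium minus mesenchyme, for the 36 laminin, nidogen and integrin genes, grouped by role. Points are means over 4 samples of each tissue, bars are 95% confidence intervals of limma's fit and short ticks are the 4 single arrays; *Lamb3* (4.39) lies farthest towards the epithelium and *Itga8* (-2.84) farthest towards the mesenchyme.

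Promoter sequences are shown for *Lamb3*, *Itgb6*, *Lama5* and *Itga8*, which were chosen because *Lamb3* and *Itgb6* had the largest differences towards the epithelium among the members and *Itga8* the largest towards the mesenchyme, and *Lama5* is a main laminin α chain of epithelial basement membranes. Windows of 300 bases, 250 before and 50 after the annotated start, were taken from RefSeq on GRCm38.p6 and are written 5′ to 3′ in the direction of the gene. Capitals mark the E-box CACCTG or its reverse complement, the letters bound by factors of the SNAIL and ZEB families.
*Lamb3* at chr1:193301993-193302292, plus strand: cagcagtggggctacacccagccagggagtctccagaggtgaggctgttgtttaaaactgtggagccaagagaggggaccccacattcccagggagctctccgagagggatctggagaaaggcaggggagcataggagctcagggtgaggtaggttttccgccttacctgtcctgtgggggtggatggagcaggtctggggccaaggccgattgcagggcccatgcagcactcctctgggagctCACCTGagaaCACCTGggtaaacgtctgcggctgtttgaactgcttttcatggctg
*Itgb6* at chr2:60673644-60673943, minus strand: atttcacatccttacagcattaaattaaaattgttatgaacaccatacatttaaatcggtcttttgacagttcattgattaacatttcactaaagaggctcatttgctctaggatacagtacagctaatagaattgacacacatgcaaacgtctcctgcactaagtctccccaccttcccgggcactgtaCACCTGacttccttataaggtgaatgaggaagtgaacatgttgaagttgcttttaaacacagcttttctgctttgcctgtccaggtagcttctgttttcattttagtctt
*Lama5* at chr2:180225810-180226109, minus strand: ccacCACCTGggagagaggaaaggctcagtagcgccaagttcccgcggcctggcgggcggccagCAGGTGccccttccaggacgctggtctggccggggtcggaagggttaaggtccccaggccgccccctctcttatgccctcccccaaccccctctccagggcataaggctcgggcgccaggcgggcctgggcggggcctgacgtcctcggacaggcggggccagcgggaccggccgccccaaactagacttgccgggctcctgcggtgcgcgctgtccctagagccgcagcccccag
*Itga8* at chr2:12301895-12302194, minus strand: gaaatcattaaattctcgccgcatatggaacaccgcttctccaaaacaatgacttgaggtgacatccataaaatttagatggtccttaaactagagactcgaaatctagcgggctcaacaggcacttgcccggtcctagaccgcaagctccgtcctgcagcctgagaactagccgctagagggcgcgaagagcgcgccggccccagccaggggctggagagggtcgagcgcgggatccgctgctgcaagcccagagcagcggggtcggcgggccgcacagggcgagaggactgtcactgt
The *Lamb3* window holds the E-box with its first base at positions -6 and 5 from the start, the *Itgb6* window at -60 and the *Lama5* window at -246 and -186. The *Itga8* window has none. *Lamb3* and *Itgb6* each have another annotated start, whose windows hold none and are not printed. For both genes the printed window is therefore the one with the E-box. Also not printed are *Itga2* and *Lamb2*, which passed towards the epithelium without it, and *Itga11* and *Itgb5*, which passed towards the mesenchyme with it. The printed windows are thus examples and do not show how often the E-box goes with either tissue. Counts over all members with a window follow below.

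Of the 36 members, 23 had at least 1 such window, and 3 of them had 2 (*Itga3*, *Itgb6* and *Lamb3*). These 3 all passed towards the epithelium. A member was counted when any of its windows held a motif, so 2 windows gave more room for a match. The shares over all windows are per window, so the counts of members cannot be set directly against them. On either strand, CACCTG was found in 5 of 7 members that passed towards the epithelium (*Itga3*, *Itga9*, *Itgb6*, *Lama5* and *Lamb3*), in 2 of 10 that passed towards the mesenchyme (*Itga11* and *Itgb5*) and in 1 of 6 that did not pass (*Itgb8*), while 20.2% of the 32851 windows in the table hold it. Of the 7 other motifs searched on both strands, TATAAA (13.6% of all windows) and the forkhead motif TGTTTAC (3.65%) were in no member. The rest are given in the same order, towards the epithelium, towards the mesenchyme and not passed. The AP-1 motif TGANTCA (7.81%) was in 2 of 7 (*Itga3* and *Itga9*), 0 of 10 and 1 of 6 (*Itgax*). The GC box GGGCGG (35.7%) was in 3 of 7, 5 of 10 and 4 of 6, and the TCF motif CTTTGA (16%) in 1, 2 and 1. The ETS core GGAA (96.0%) was in 7, 9 and 6, and the CArG box (1.63%) in 1, 1 and 0. The CArG box can contain TATAAA, which was in no member. The motifs were chosen with the differences known, and a match of letters is a description of the window and not a binding site.

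The 5 laminin α chains, which carry the domains that cells bind, were divided, 3 being higher and 2 lower in the epithelium. Among all genes tested, 21.2% passed towards the epithelium and 24.8% towards the mesenchyme. *Lama3*, whose α3 chain belongs to the laminins of hemidesmosomes, had signals of 8.59, 8.61, 8.64 and 8.56 in the epithelium samples, against 6.17, 5.84, 6.20 and 5.93 in the mesenchyme samples. The groups were far apart and did not overlap, with a 5.92-fold higher mean in the epithelium (2.57 in log2 signal, SE 0.088, adjusted p = 3.71e-08 from limma). The dimmer of its 2 features differed by 0.30, without passing the test. *Lama1*, whose α1 chain is typical of early embryonic basement membranes, had signals of 7.14, 7.27, 7.17 and 7.15 in the epithelium, against 5.50, 5.74, 5.77 and 5.37 in the mesenchyme. All epithelium samples lay above all mesenchyme samples, by 3.01-fold between the means (1.59 in log2 signal, SE 0.096, adjusted p = 1.39e-06). *Lama5*, which encodes the α5 chain found beneath most epithelia, had 11.23, 11.37, 11.30 and 11.30 in the epithelium, against 9.62, 9.77, 9.76 and 9.72 in the mesenchyme. The samples of each tissue were again close together and clearly apart from the other tissue, 2.99-fold higher in the epithelium (1.58 in log2 signal, SE 0.057, adjusted p = 4.92e-08). *Lama1* and *Lama5* have 1 feature each on the array.

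*Lama4*, the α4 chain of vessel walls and mesenchyme, had signals of 8.29, 8.41, 8.25 and 8.31 in the epithelium, against 9.96, 10.07, 9.89 and 9.88 in the mesenchyme. It was 3.10-fold lower in the epithelium with no overlap (-1.63 in log2 signal, SE 0.064, adjusted p = 8.35e-08 from limma), and 3 of its 4 features passed in that direction, while the dimmest differed by -0.069. *Lama2*, the α2 chain known from muscle and mesenchymal basement membranes, averaged 6.01 ± 0.14 in the epithelium, against 6.87 ± 0.12 in the mesenchyme (SD, n = 4 each). Its difference of -0.85 (SE 0.090) passed the test. So did 11 of its 12 features, with differences from -0.90 to -0.66, while the dimmest had -0.54 and did not pass. The endothelial markers named above moved with these genes, with list means of 5.49 to 5.81 in the epithelium samples, against 9.17 to 9.22 in the mesenchyme samples. Their part in the differences of *Lama4* and *Lama2* was not tested.

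Among the β chains, *Lamb3* had the largest difference of all members. Its β3 chain occurs together with the α3 chain. The signals were 8.42, 8.40, 8.49 and 8.25 in the epithelium, against 4.02, 3.86, 4.15 and 3.97 in the mesenchyme. There was no overlap, and the epithelium was 20.9-fold higher (4.39 in log2 signal, SE 0.079, adjusted p = 1.88e-09 from limma), which placed *Lamb3* at rank 51 of 18996 genes towards the epithelium. The mesenchyme signal lay at the 36th percentile of all genes in that tissue, and the gene has 1 feature.

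The β1 and β2 chains, which take part in most other laminins, differed little. *Lamb2* averaged 9.62 ± 0.10 in the epithelium, against 9.23 ± 0.11 in the mesenchyme (SD, n = 4 each), a difference of 0.39 (SE 0.076) that passed the test. *Lamb1* had 11.27, 11.12, 11.12 and 10.93 in the epithelium, against 11.08, 10.98, 10.93 and 10.80 in the mesenchyme. These ranges overlap, yet the epithelium sample was the higher one on each of the 4 arrays, by 0.13 to 0.19. Replicate 1 was the highest and replicate 4 the lowest in both tissues. The unpaired difference of 0.16 (SE 0.088, 95% interval -0.037 to 0.37) did not pass (adjusted p = 0.167 from limma), and it passed with the array as a replicate block (SE 0.026, adjusted p = 0.00579).

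*Lamc1* encodes the γ1 chain of most laminins. It averaged 12.86 ± 0.10 in the epithelium, against 12.03 ± 0.083 in the mesenchyme (SD, n = 4 each). The difference of 0.83 (SE 0.071, adjusted p = 1.47e-05 from limma) ran from 0.81 to 0.89 over the 4 arrays. *Lamc3*, the γ3 chain, was among the dimmest 30% of genes, with signals of 2.63, 2.45, 2.46 and 2.54 in the epithelium, against 4.02, 2.31, 3.06 and 2.23 in the mesenchyme. Its difference of -0.38 (95% interval -1.21 to 0.44) did not pass, its mesenchyme samples spread widely, and its 3 features disagreed in sign.

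Both nidogens were lower in the epithelium. *Nid1* had signals of 10.26, 10.23, 10.30 and 10.38 in the epithelium, against 12.02, 12.06, 12.09 and 12.14 in the mesenchyme. It was 3.44-fold lower in the epithelium with no overlap (-1.78 in log2 signal, SE 0.055, adjusted p = 1.92e-08 from limma). *Nid2* had 8.18, 7.98, 8.10 and 7.94 in the epithelium, against 10.35, 10.23, 10.22 and 10.21 in the mesenchyme. The mesenchyme samples were 4.61-fold higher, again with no overlap (-2.20 in log2 signal, SE 0.069, adjusted p = 2.05e-08). Thus the linker genes and *Lamc1*, whose γ1 chain is the one nidogens bind, had differences of opposite sign in the same samples. Each nidogen gene has 1 feature.

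**Figure D2:**
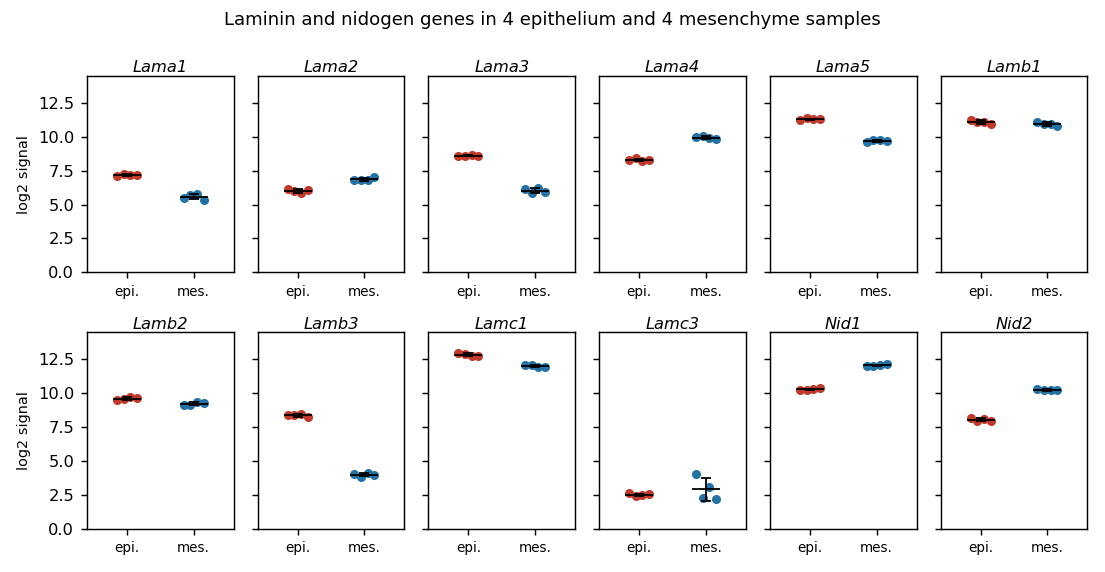
Normalized log2 signal of the laminin and nidogen genes in 4 epithelium (epi.) and 4 mesenchyme (mes.) samples, as points, with the mean as a line and the SD as a bar. *Lamb3*, *Lama3*, *Lama1* and *Lama5* lie higher in the epithelium and *Nid1*, *Nid2* and *Lama4* lower, while the samples of *Lamb1* and *Lamc3* overlap; signals of different genes are not comparable.

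The integrin α chains that bind laminin were divided as well. *Itga3* averaged 8.16 ± 0.15 in the epithelium, against 7.34 ± 0.13 in the mesenchyme (SD, n = 4 each), a difference of 0.82 (SE 0.094, adjusted p = 1.04e-04 from limma). *Itga6*, whose α6 chain pairs with β1 or β4, averaged 10.47 ± 0.11 in the epithelium, against 9.74 ± 0.16 in the mesenchyme and differed by 0.73 (SE 0.092, adjusted p = 1.98e-04). Neither gene's samples overlapped, and the 3 features of each were all higher in the epithelium, by 0.59 to 1.22 for *Itga3* and by 0.57 to 0.73 for *Itga6*. *Itga7*, the laminin-binding chain known from muscle, was lower in the epithelium (3.53 ± 0.28, against 4.34 ± 0.24 in the mesenchyme, SD, n = 4 each). It differed by -0.82 (SE 0.16), while its dimmer feature had 0.34 and did not pass.

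*Itgb4* encodes the β4 chain, which pairs only with α6 and connects laminin to keratin filaments at hemidesmosomes. Its signals were 8.33, 8.17, 8.01 and 7.95 in the epithelium, against 6.60, 6.37, 6.18 and 6.31 in the mesenchyme. There was no overlap between the tissues, and the epithelium was 3.37-fold higher (1.75 in log2 signal, SE 0.11, adjusted p = 2.10e-06 from limma). Of its 3 features, 2 had almost the same difference (1.75 and 1.73) and the dimmest 0.17.

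*Itgb1*, the common partner of the laminin-binding, collagen-binding and several other α chains, had signals of 9.33, 9.42, 9.49 and 9.44 in the epithelium, against 9.36, 9.45, 9.49 and 9.48 in the mesenchyme. The samples overlapped, and the differences within an array ran only from -0.039 to 0.004. The difference of -0.023 had a 95% interval of -0.16 to 0.11, and none of the 12 features of the gene passed the test (range -0.041 to 0.19). Most of the α chains it pairs with passed in one direction or the other.

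Of the collagen-binding α chains, *Itga1* and *Itga11* were lower in the epithelium and *Itga2* was higher. *Itga1* averaged 5.38 ± 0.20 in the epithelium, against 6.13 ± 0.071 in the mesenchyme (SD, n = 4 each), a difference of -0.75 (SE 0.10, adjusted p = 3.07e-04 from limma), with -0.75 to -0.17 over its 4 features. *Itga2* had signals of 4.93, 3.74, 4.42 and 4.44 in the epithelium, against 4.14, 3.0, 3.22 and 3.74 in the mesenchyme. Its samples spread widely and overlapped, although the epithelium was higher on each of the 4 arrays. The difference of 0.86 (SE 0.31) just passed (adjusted p = 0.0483), and no longer passed when epithelium replicate 1, 3 or 4 or mesenchyme replicate 2, 3 or 4 was left out (0.67 to 0.93, adjusted p 0.0637 to 0.120). With the array as a replicate block the difference still passed (SE 0.098, adjusted p = 0.00199 from limma). The other, dimmer feature of *Itga2* had -0.11. *Itga1* and *Itga2* are neighbours on chromosome 13, with 0 protein-coding genes starting between them in RefSeq, and had differences of opposite sign. *Itga11* differed by -0.26 (SE 0.089, adjusted p = 0.0425) with overlapping samples, and did not pass when any 1 sample other than mesenchyme replicate 4 was left out (-0.29 to -0.20, adjusted p 0.0518 to 0.106). The epithelium sample of *Itga11* was the lower one on each array, by -0.34 to -0.22. With the array as a replicate block *Itga11* still passed (SE 0.032, adjusted p = 0.00257 from limma).

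The α chains that recognise the RGD sequence of fibronectin, nephronectin and related ligands were lower in the epithelium in 3 of 4 cases. Over all genes tested, 24.8% passed in that direction. *Itga8*, the nephronectin receptor chain, had signals of 8.95, 9.05, 8.95 and 8.93 in the epithelium, against 11.86, 11.78, 11.80 and 11.80 in the mesenchyme. The samples of each tissue lay within about 0.11 of each other, and the epithelium was 7.15-fold lower (-2.84 in log2 signal, SE 0.051, adjusted p = 1.85e-09 from limma). This was the largest difference towards the mesenchyme among the members, at rank 184 of all genes, and its 3 features had -2.84, -2.67 and -1.41. *Itga5*, the fibronectin receptor chain, averaged 6.51 ± 0.074 in the epithelium, against 7.21 ± 0.048 in the mesenchyme (SD, n = 4 each) and differed by -0.69 (SE 0.057, adjusted p = 1.13e-05). *Itgav*, whose αv chain pairs with several β chains, averaged 7.77 ± 0.016 in the epithelium, against 7.81 ± 0.085 in the mesenchyme. Its difference of -0.033 (95% interval -0.16 to 0.097) did not pass, and neither did any of its 6 features.

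*Itga2b*, the αIIb chain of platelets and their precursors, had signals of 2.95, 2.73, 2.46 and 2.37 in the epithelium, against 4.87, 4.69, 4.34 and 4.80 in the mesenchyme. It was lower in the epithelium, with no overlap (-2.05 in log2 signal, SE 0.16, adjusted p = 6.58e-06 from limma), and the epithelium signal lay at the 20.8th percentile of genes. The platelet markers moved with it, with list means of 3.85 to 4.00 in the epithelium samples, against 6.32 to 6.52 in the mesenchyme samples, and their part in the difference was not tested. *Itgb3*, the partner of αIIb and of αv, averaged 7.34 ± 0.16 in the epithelium, against 7.83 ± 0.14 in the mesenchyme (SD, n = 4 each), a difference of -0.49 (SE 0.10) that passed and was nearly the same in its other feature (-0.43).

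The β chains that pair with αv differed in both directions. *Itgb6*, the epithelial chain of a receptor that activates latent TGFβ, had signals of 6.09, 6.06, 6.28 and 6.20 in the epithelium, against 2.92, 1.76, 2.86 and 3.0 in the mesenchyme. Replicate 2 of the mesenchyme was the lowest sample, and all mesenchyme samples were far below the epithelium. The epithelium was higher (3.52 in log2 signal, SE 0.26, adjusted p = 4.85e-06 from limma), and the difference was 3.23 without mesenchyme replicate 2. The mesenchyme signal was among the dimmest of the array, at the 21.4th percentile, so no fold is given, and the other features had differences of 1.20 and 0.079. *Itgb8*, whose product also activates latent TGFβ, averaged 5.23 ± 0.10 in the epithelium, against 5.05 ± 0.15 in the mesenchyme (SD, n = 4 each). Its samples overlapped and the difference of 0.17 (95% interval -0.030 to 0.38) did not pass (adjusted p = 0.149). With the array as a replicate block it passed (adjusted p = 0.0264), and likewise without mesenchyme replicate 1 (0.25, adjusted p = 0.0271). Its 3 dimmer features all had the opposite sign (-0.15 to -0.0098), and so did the mean and the median feature. *Itgb5*, the vitronectin receptor chain, had 11.15, 11.31, 11.21 and 11.34 in the epithelium, against 12.54, 12.66, 12.64 and 12.78 in the mesenchyme. It lay on the side opposite to *Itgb6*, 2.65-fold lower in the epithelium with no overlap (-1.41 in log2 signal, SE 0.071, adjusted p = 4.20e-07 from limma).

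The closely related α4 and α9 chains, which share ligands such as VCAM1 and tenascin C, had opposite signs. *Itga4* had signals of 4.80, 4.63, 4.58 and 4.67 in the epithelium, against 6.45, 6.46, 6.65 and 6.24 in the mesenchyme. The epithelium was 3.44-fold lower with no overlap (-1.78 in log2 signal, SE 0.093, adjusted p = 5.37e-07 from limma). Of its 6 features, 4 passed in this direction, and the others, near the lower end of the signal, had 0.19 and 0.085. *Itga9* averaged 11.20 ± 0.16 in the epithelium, against 10.52 ± 0.17 in the mesenchyme (SD, n = 4 each), with a difference of 0.68 (SE 0.11, adjusted p = 9.07e-04) and 0.08 to 0.68 over 3 features. Smooth muscle, a tissue known for α9, had its markers at list means of 10.38 to 10.46 in the epithelium samples, against 8.07 to 8.27 in the mesenchyme samples. Their part in the *Itga9* difference was not tested.

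**Figure D3:**
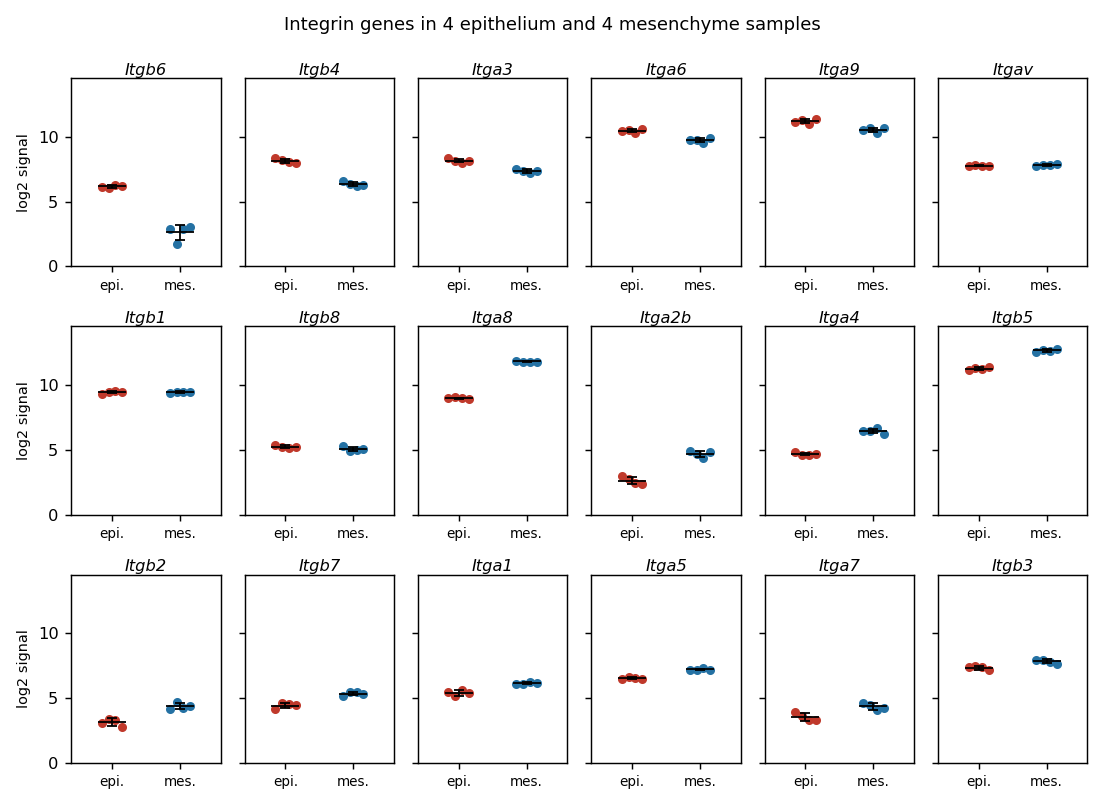
Normalized log2 signal of the integrin genes outside the collagen-binding *Itga2* and *Itga11* and the αE, αL, αM and αX chains, in 4 epithelium (epi.) and 4 mesenchyme (mes.) samples, with the mean as a line and the SD as a bar. *Itgb6* and *Itgb4* lie clearly higher in the epithelium, *Itga8*, *Itga2b*, *Itga4* and *Itgb5* lower, and the samples of *Itgb1*, *Itgav* and *Itgb8* overlap. Signals of different genes are not comparable.

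Of the 6 leukocyte integrin chains, 3 passed, all towards the mesenchyme, beside 24.8% of all genes in that direction and 45.9% in either. *Itgb2*, the β2 chain shared by the αL, αM and αX receptors, had signals of 3.08, 3.40, 3.30 and 2.73 in the epithelium, against 4.14, 4.69, 4.25 and 4.35 in the mesenchyme. The epithelium was lower, with a signal at the 28.5th percentile of genes, and the samples did not overlap (-1.23 in log2 signal, SE 0.17, adjusted p = 3.16e-04 from limma). *Itgb7*, the β7 chain that pairs with α4 and αE, averaged 4.42 ± 0.20 in the epithelium, against 5.34 ± 0.15 in the mesenchyme (SD, n = 4 each), a difference of -0.93 (SE 0.11, adjusted p = 1.72e-04). *Itgal* differed by -0.38 (SE 0.13, adjusted p = 0.0363) with overlapping samples. Its dimmer feature had -1.66, and the call was lost without epithelium replicate 2 or 4 or mesenchyme replicate 1, 2 or 3 (-0.40 to -0.28, adjusted p 0.0586 to 0.0952). With the array as a replicate block *Itgal* still passed (SE 0.058, adjusted p = 0.00502 from limma).

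*Itgam* (-0.14, 95% interval -0.54 to 0.26) and *Itgax* (-0.14, -0.38 to 0.10) did not pass and were among the dimmest 30% of genes. *Itgae*, the partner of β7 that binds E-cadherin, did not pass either (0.18, 95% interval -0.11 to 0.46). *Itgae* passed without mesenchyme replicate 3 (0.29, adjusted p = 0.0385 from limma), and *Itgax* without epithelium replicate 3 (-0.24, adjusted p = 0.0236). The leukocyte markers, 8 of 8 towards the mesenchyme, had list means of 5.77 to 5.87 in the epithelium samples, against 7.38 to 7.48 in the mesenchyme samples. Their part in the differences of these integrin genes was not tested.

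Several known receptor combinations can be read as pairs. Both chains were higher in the epithelium for α6β4 (*Itga6* 0.73 and *Itgb4* 1.75), and both were lower for αIIbβ3 (*Itga2b* -2.05 and *Itgb3* -0.49), α4β7 (*Itga4* -1.78 and *Itgb7* -0.93) and αLβ2 (*Itgal* -0.38 and *Itgb2* -1.23). Among pairs formed with *Itgb1*, the α chain alone passed, towards the epithelium for α2, α3, α6 and α9 and towards the mesenchyme for α1, α4, α5, α7, α8 and α11. Among those formed with *Itgav*, the β chain alone passed for αvβ6, towards the epithelium, and for αvβ3 and αvβ5, towards the mesenchyme, while neither chain passed for αvβ1 or αvβ8. The β chain alone also passed, towards the mesenchyme, for αMβ2, αXβ2 and αEβ7. For laminins, the genes of the α3 and β3 chains were both higher in the epithelium, and so were those of α5, β2 and γ1. The nidogens and the α2 and α4 chains lay on the other side. These are levels of RNA for each chain, and pairing of the proteins was not measured.

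The features of each gene are a check on the choice of the brightest. The 36 members have 99 features on the array, 14 members with 1 and 22 with more. A feature with a sign opposite to the brightest was found in 8 members, and in 0 of them did features pass in both directions. The features of 8 members spanned more than 1 on the log2 scale, and for *Itgb6*, *Lama3*, *Itgb4*, *Lama4*, *Itga4*, *Itga7* and *Itga8* the smaller or opposite differences were those of dim features. *Itgal* was the exception, its -1.66 coming from a feature nearly as bright as the one that represents it (mean signals of 3.60 and 3.91).

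**Figure D4:**
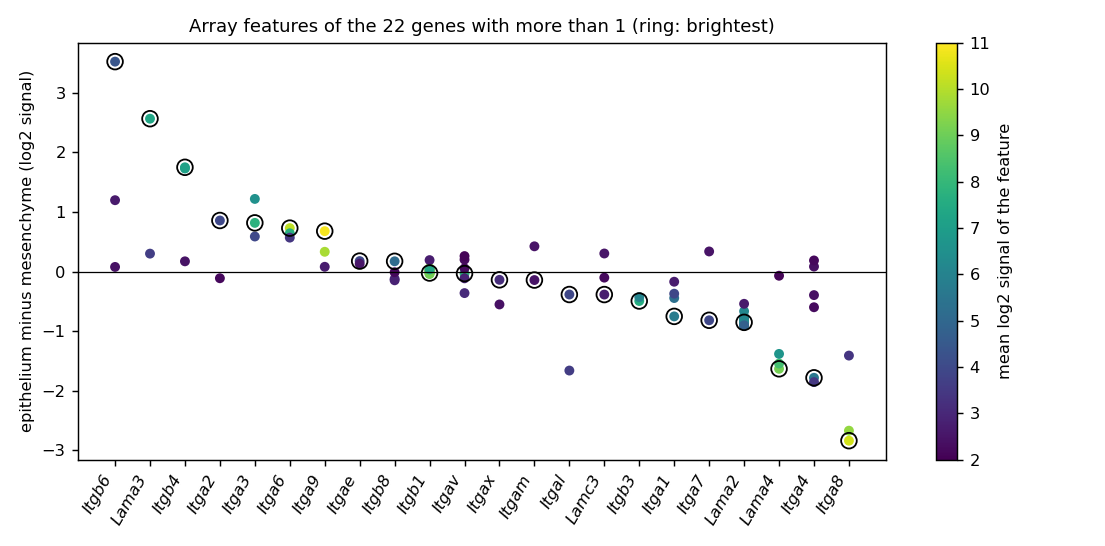
Log2 difference, epithelium minus mesenchyme, of every array feature of the 22 members with more than 1 feature. Colour gives the mean log2 signal of a feature over the 8 samples and a ring marks the brightest, which stands for the gene; dark, dim features lie near 0 for many of the genes.

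Other genes of the pathway were taken from lists of receptors, matrix partners and adhesion components. A list of laminin receptors that are not integrins also held sarcoglycan genes and the tetraspanin gene *Cd151*, which are not themselves laminin receptors. Of its 10 genes, 6 passed towards the epithelium and 2 towards the mesenchyme, with a median of 0.72. *Cd151* is among the 6 and is counted again in the hemidesmosome list below. The syndecan gene *Sdc4* (2.12, SE 0.058), *Bcam*, whose product binds the laminin α5 chain (1.27, SE 0.14), the dystroglycan gene *Dag1* (1.26, SE 0.091) and the glypican gene *Gpc1* (1.18, SE 0.054) were higher in the epithelium. The sarcoglycan genes *Sgcd* (-0.67) and *Sgcb* (-0.42) were lower. The shares were 60% and 20% of the list, beside 21.2% and 24.8% of all genes, so the share towards the mesenchyme was no higher than that of all genes.

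Of 19 other basement membrane genes, 9 (47.4%) passed towards the epithelium and 4 (21.1%) towards the mesenchyme, beside 21.2% and 24.8% of all genes (median 0.11). The 6 collagen IV genes did not move together. *Col4a5* (2.19, SE 0.063) and *Col4a6* (2.63, SE 0.065) were higher in the epithelium, *Col4a2* was slightly lower (-0.22, SE 0.063, adjusted p = 0.0194 from limma), and *Col4a1*, its partner in the common collagen IV trimer, had -0.18 and did not pass (adjusted p = 0.0532). *Col4a3* (-0.31) and *Col4a4* (-0.16) did not pass either. The SPARC-related genes *Smoc2* (3.28) and *Smoc1* (2.26) were higher in the epithelium, and *Col15a1*, a collagen of vessel and muscle basement membranes, was 11.1-fold lower (-3.48, SE 0.11). *Hspg2*, which encodes perlecan, is not analysed here.

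The hemidesmosome list had 4 genes towards the epithelium and 2 towards the mesenchyme out of 8, or 50% and 25%, the second being close to the 24.8% of all genes in that direction. The keratin genes *Krt18* (3.46, SE 0.058) and *Krt8* (3.49, SE 0.66) were higher in the epithelium, although *Krt8* varied widely in the mesenchyme, with signals of 9.42, 9.23, 8.95 and 12.25, the last (replicate 4) far above the others. In contrast, *Col17a1*, the transmembrane collagen of hemidesmosomes, was lower in the epithelium (-2.80, SE 0.12), as was the basal keratin gene *Krt14* (-1.40, SE 0.086). Thus *Itgb4*, *Lama3* and *Lamb3*, whose products meet at hemidesmosomes, and *Col17a1* had opposite signs.

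Integrin ligands were divided, with 7 of 19 (36.8%) towards the epithelium and 9 (47.4%) towards the mesenchyme, beside 21.2% and 24.8% of all genes (median -0.13). *Thbs1*, which encodes thrombospondin (3.86, SE 0.061), *Egfl6* (2.28, SE 0.12) and the β2 ligand gene *Icam1* (1.91, SE 0.049) were higher in the epithelium. *Icam2*, the β2 ligand of endothelium, was 12.4-fold lower (-3.63, SE 0.13). *Npnt*, which encodes the α8 ligand nephronectin, was lower in the epithelium by a smaller margin (-0.52, SE 0.075), on the same side as *Itga8*.

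Inside the cell, 7 of 28 integrin-linked adhesion genes passed towards the epithelium and 15 towards the mesenchyme (median -0.27), beside 21.2% and 24.8% of all genes. *Fermt1*, which encodes the kindlin of epithelia, an activator of integrins, was higher in the epithelium (3.44, SE 0.12), with a mesenchyme signal of 2.87 that is near the lower end of the array. The PINCH family gene *Lims2* was higher in the epithelium (1.21, SE 0.049), and the parvin gene *Parvb* (-1.76, SE 0.14) and the tensin gene *Tns3* (-1.16, SE 0.057) were lower.

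**Figure D5:**
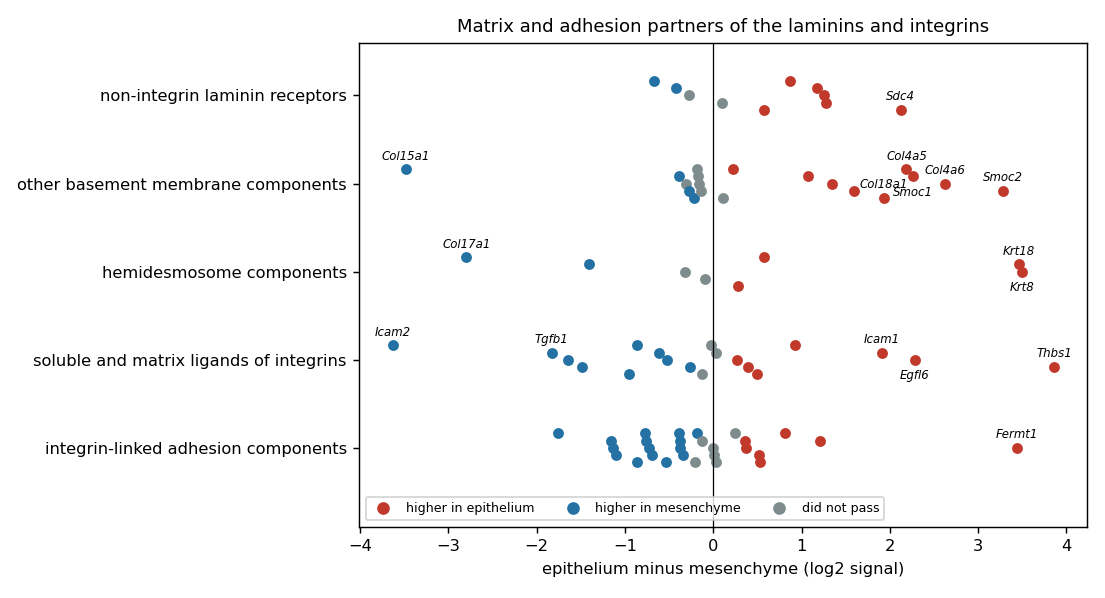
Log2 difference, epithelium minus mesenchyme, of the genes in 5 lists around the laminins and integrins, as single points (means over 4 samples of each tissue). Colour shows the direction in which a gene passed limma's test; *Thbs1* (3.86) and *Icam2* (-3.63) mark the ends of the range, and points are spread vertically for legibility.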

How the data were processed

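RNA from 4 epithelium and 4 mesenchyme samples was hybridised to 4 Agilent arrays of 2 colours. The paper gives fewer replicates for this comparison without naming those it used, and all 4 per tissue were analysed here. The deposited values are log2 signals, 1 per array feature and sample. By the methods, the authors used the mean signal of each spot, normexp background correction (offset 1), a logarithm, quantile normalization and averaging of spots of 1 probe. The base of the logarithm is not given in the sources used here and log2 was inferred from their range. Both dyes appear in the labels, each read as its own channel, while the methods mention only Cy3.

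Of 45220 features, 33653 had a single gene in the platform annotation, 56 had several, 11511 had none and 523 with a missing value were left out. Of the single-gene features 33517 matched RefSeq by gene and 0 symbols changed. Each gene was represented by the feature with the highest mean, as in the methods, and spots were not averaged first. Tissues were compared with limma 3.58.1 in R 4.3.3, by lmFit and eBayes, unpaired as in the methods, with Benjamini-Hochberg adjustment over 18996 genes and a threshold of 0.05. The steps were tested on simulated data. Plots were drawn with matplotlib 3.10.9.

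Samples of the same number share an array. Their deviations from the tissue mean correlated across genes at 0.35, 0.62, 0.53 and 0.47, against -0.32 to -0.037 for samples of different arrays, so the numbers pair the samples and a fit with the array as a replicate block was an alternative. Nothing says that the replicates are separate embryos beyond the series description, so the p-values cover only how much these samples vary, and that variation may be technical. The number of arrays limits the precision.

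The members, lists and motifs were chosen with earlier results of these data known. Members with a log2 difference of at least 1 that passed with 1 sign on 4 arrays are given by sample, and the others by difference. *Lamb1*, *Lamc3*, *Itgb1* and *Itga2*, which fall outside this, were given by sample after their values were seen. From each partner list up to 4 genes with the largest differences are named, with *Col4a1*, *Col4a2*, *Hspg2*, *Dag1* and *Npnt*. *Col4a3*, *Col4a4*, *Col4a5*, *Sgcb*, *Sgcd*, *Cd151*, *Msln* and *Krt19* were named after their values were seen. The alternatives were the block, the mean or the median feature of a gene, leaving out the dimmest 30% of genes, equal sample medians, eBayes with trend and robust, keeping features with missing values, and leaving out each sample in turn.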

Additional observations from a re-analysis of the deposited data

Results flagged for a closer look

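In 4 of 72 groups of 4 samples, 1 sample stood so far from the others that its gap, as a share of the range of the group, exceeded the 95% critical value of Dixon's test. Chance gives about 1 such group in 20. *Itgb6* in the mesenchyme had 1.76 in replicate 2, while the others lay between 2.86 and 3.0, near the lower end of the signal. Without this sample the difference was 3.23 and still passed. *Itga5* had 7.28 in mesenchyme replicate 3, above the others at 7.18 to 7.19. *Nid2* had 10.35 in mesenchyme replicate 1, above 10.21 to 10.23 in the others. *Itga8* had 9.05 in epithelium replicate 2, above 8.93 to 8.95 in the others. In the last 3 genes the gap was about 0.1 or less on the log2 scale, beside differences between the tissues of -0.69, -2.20 and -2.84.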

How the results depend on the processing

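The 15 alternatives left 21 of the 36 members on the same side of limma's threshold with the same sign. Members passing towards the epithelium numbered 11 to 13 and towards the mesenchyme 14 to 16 when 1 sample was left out, and 14 and 16 with the array as a replicate block, beside 12 and 16. The block added the calls of *Lamb1* and *Itgb8* and changed no other member's call. With the median feature 10 and 13 members passed, and with the mean of all features 11 and 17. With the median feature the sign turned for *Itga2* (-0.11), *Itga4* (0.085), *Itga7* (0.34), *Itgam* (0.42), *Itgav* (0.055), *Itgb8* (-0.15) and *Lamc3* (0.30), and *Lama3* (0.30), *Itga1* (-0.37) and *Itga11* (-0.26) no longer passed. With the mean of features it turned for *Itgam* (0.14), *Itgav* (0.0022), *Itgb1* (0.023) and *Itgb8* (-0.026), and *Itga2* (0.37) no longer passed, while *Itgax* passed towards the mesenchyme under both. With 1 sample left out, *Itgb1* ranged from -0.050 to 0.0086, *Itgam* from -0.25 to 0.0057 and *Itgav* from -0.066 to 0.0032, and none of these passed. *Itgal* no longer passed with trend and robust eBayes (-0.38). For single samples left out, the calls of *Itga2*, *Itga11*, *Itgal*, *Itgae*, *Itgax* and *Itgb8* changed as given with their values above. Dim features have only a narrow range above background, which limits *Lamc3*, *Itgam* and *Itgax* in both tissues and *Itgb6*, *Itga2b* and *Itgb2* in 1 of them.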
